A study of Mus musculus with 8 samples.

Results

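Depp1 encodes a small protein, named for its induction by progesterone in the decidua, whose transcription is switched on by FoxO factors, and it was examined here together with the 4 FoxO genes of the mouse, Foxo1, Foxo3, Foxo4 and Foxo6. Depp1 was selected on its measured fall in the brains of stressed fetuses, so its difference between the groups is described and carries no test. The FoxO genes are the whole mouse family and were taken regardless of their values. These 5 genes were found by symbol among the 54752 gene identifiers listed, and all 5 were among the 17865 genes with enough reads to be tested.

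RNA-seq was performed on 8 brains of C57BL/6 wild-type mouse fetuses (C57BL/6Slac in the study's methods) at E15.5. The methods and the labels give whole brain as the tissue, whereas the study's library list names it half_whole_brain, and which of these the values measure was not settled. The dams of the 4 stress brains underwent chronic unpredictable mild stress (CUMS) from E5.5 to E14.5, and the dams of the 4 control brains stayed in their home cages. Each group held 2 females and 2 males, named here by sex and animal number (for example F36). The study's library list places the 4 control brains in 1 litter and the 4 stress brains in 1 other litter, so litter and stress cannot be told apart, and p-values measure the spread between littermates. Libraries held 25320109 to 29105710 gene-assigned counts.

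FoxO proteins are forkhead transcription factors restrained by insulin and growth factor signalling. Receptor tyrosine kinases act through PI3-kinase and AKT, and AKT and SGK kinases phosphorylate FoxO proteins, which are then bound by 14-3-3 proteins and kept out of the nucleus. When the signal is low, FoxO proteins bind their DNA motif and activate genes of cell cycle exit, oxidative stress defence, cell death, autophagy and fasting metabolism, Depp1 among them. FoxO activity is thus largely set on the protein, which RNA counts do not show. Depp1 is known from vascular endothelium and from fasted tissues, and its protein has been linked to autophagy and to peroxisomes and mitochondria.

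The sequence before Depp1 is shown because it holds a FoxO-type motif. The RefSeq promoter window of Depp1 (GRCm38.p6, 250 bases before to 50 bases after the RefSeq start at chromosome 6, 116650684) was searched on both strands for TGTTTAC and TATTTAC, the common FoxO-binding letters. It held 1 match, GTAAATA, which is TATTTAC on the opposite strand, with its first base 181 bases before the start. The 175 bases of the window that lie before the annotated gene are printed 5′ to 3′ on the plus strand, chr6:116650434-116650608, with the motif in capitals.
Depp1 upstream: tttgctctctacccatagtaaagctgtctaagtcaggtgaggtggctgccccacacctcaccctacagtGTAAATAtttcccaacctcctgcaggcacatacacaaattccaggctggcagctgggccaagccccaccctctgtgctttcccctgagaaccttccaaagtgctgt

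TATTTAC was present in 3.04% of the 32851 promoter windows, TGTTTAC in 3.65% and either motif in 6.54%. A match of this kind describes the letters and is not evidence of a bound site. The promoter windows of Foxo1 and Foxo3 held no match, and Foxo4 and Foxo6 had no row in the table. Among the 39 genes with a window in a list of genes that FoxO factors are known to induce, 8 (20.5%) held either motif in at least 1 window, against 7.35% of the 27025 genes with a window. These 8 were Btg1, Mxi1, Sesn1, Txnip, Selenop, Bcl2l11, Bbc3 and Trim63. The windows around the match are shown for the 3 of them that differed between the groups (values further on), each on the plus strand, 10 bases to either side of the motif, which is in capitals. They lie at chr3:96557826-96557852 for Txnip, chr19:53329454-53329480 for Mxi1 and chr7:16310084-16310110 for Bbc3, with the motif starting 121, 231 and 167 bases before the respective RefSeq start.
Txnip: tggaggcctgGTAAACAagggccaagt
Mxi1: gcgcggagaaGTAAACAaaccgcgcgc
Bbc3: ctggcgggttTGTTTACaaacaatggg

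Depp1 (ENSMUSG00000048489.12, chr6:116650609-116652794, plus strand, mm10) was a low-abundance transcript in every brain and was lower in each stress brain than in any control brain. In control brains, 65, 63, 41 and 51 reads were counted in F36, F37, M30 and M31. In stress brains, F34, F35, M28 and M29 had 19, 11, 21 and 21. Both control females stood above both control males, and stress F35 was the lowest of all 8 brains.

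As counts-per-million values (CPM, with library totals adjusted by edgeR's TMM method), Depp1 was 2.37, 2.22, 1.49 and 1.79 in the control brains, with a mean of 1.97 ± 0.40 (SD, n = 4). It was 0.69, 0.43, 0.73 and 0.73 in the stress brains, with a mean of 0.65 ± 0.14 (SD, n = 4), 67.2% below the control mean. The lowest control value was thus above the highest stress value, 1.49 against 0.73 CPM.

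The fitted log2 fold change (Log2FC, stress against control, with sex in the model) was -1.58 (SE 0.20, 95% interval -2.0 to -1.16), or 0.335 of the control level. Summed over brains, 220 reads were counted in control (95% Poisson interval 192 to 251) and 72 in stress (56.3 to 90.7), intervals that cover counting error only. Leaving out stress F35 moved the Log2FC to -1.39. The other Depp1 alternatives, 12 in number, gave between -1.69 and -1.51. In bulk brain tissue, fewer cells of a type that expresses Depp1 and less Depp1 RNA per cell cannot be told apart.

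**Figure D1:**
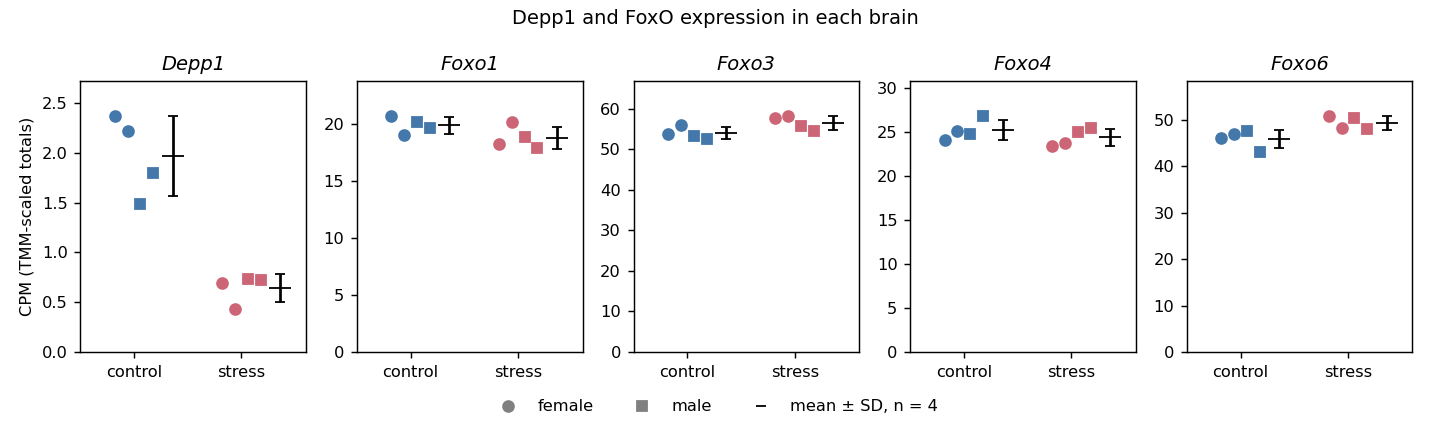
CPM (y axes from 0, 1 scale per gene) of the 5 genes in the 4 control (blue) and 4 stress (red) brains, females as circles and males as squares, with mean ± SD beside them. Depp1 ran from 1.49 to 2.37 CPM in control and from 0.43 to 0.73 in stress, whereas the ranges of Foxo1, Foxo3 and Foxo4 overlapped between the groups.

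The 4 FoxO genes, taken regardless of their values, differed little between the groups. With adjusted p below 0.05 as the threshold (edgeR quasi-likelihood test, Benjamini-Hochberg over the 17865 genes), 0 of the 4 were called, 1 of them (Foxo6) had an unadjusted p below 0.05, and DESeq2 also called 0. Across all genes tested, 13.8% were called, 6.49% higher and 7.27% lower in stress. Of all genes tested, 16.4% had groups that did not overlap in CPM, and of the FoxO genes only Foxo6 did.

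Foxo6 (ENSMUSG00000052135.8, chr4:120267079-120287349, minus strand) is a FoxO gene enriched in brain whose protein, unlike the others, shuttles little between nucleus and cytoplasm. It measured 46.1, 46.9, 47.6 and 43.2 CPM in control F36, F37, M30 and M31. In stress F34, F35, M28 and M29 it measured 50.8, 48.2, 50.4 and 48.1 CPM. Every stress brain was above every control brain, by a small margin between control M30 and stress M29.

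The Foxo6 means were 45.9 ± 1.93 CPM in control and 49.4 ± 1.43 CPM in stress (SD, n = 4), a Log2FC of 0.10 (SE 0.04, 95% interval 0.02 to 0.19). In the edgeR test the p was 0.0136 and the adjusted p 0.0791, and an exact two-sided permutation test of CPM gave 0.0286, the smallest p that 4 against 4 brains allow. Over the alternatives the adjusted p ran from 0.0576 to 0.271. Foxo6 therefore did not pass the threshold in any fit.

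Foxo3 (ENSMUSG00000048756.11, chr10:42181841-42276755, minus strand), known for keeping neural stem cells quiescent, had the highest read counts of the family. Control brains measured 53.9, 56.0, 53.3 and 52.5 CPM and stress brains 57.7, 58.1, 55.7 and 54.5 CPM, in the same order of animals as above. In stress, 2 brains lay above all control brains and 2 lay within the control range. The means were 53.9 ± 1.46 and 56.5 ± 1.70 CPM (SD, n = 4). The Log2FC was 0.07 (SE 0.03, 95% interval -0.0027 to 0.14, edgeR p = 0.0589, adjusted p = 0.206, exact permutation p = 0.0857).

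Foxo1 (ENSMUSG00000044167.6, chr3:52268336-52353221, plus strand), required for blood vessel formation in the embryo and a main effector of insulin in liver, moved toward lower values with overlapping groups. It measured 20.7, 19.0, 20.2 and 19.6 CPM in control and 18.2, 20.1, 18.8 and 17.9 CPM in stress. Stress F35, the brain with the least Depp1, was the stress brain with the most Foxo1. The means were 19.9 ± 0.71 and 18.8 ± 0.995 CPM (SD, n = 4), with a Log2FC of -0.08 (SE 0.05, 95% interval -0.19 to 0.03, edgeR adjusted p = 0.336, exact permutation p = 0.114). Reads were counted without regard to strand, and 7.78% of Foxo1 exon bases are shared with the antisense gene Gm20402.

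Foxo4 (ENSMUSG00000042903.8, chrX:101254528-101260873, plus strand), the X-linked member, measured 24.1, 25.1, 24.8 and 26.8 CPM in control and 23.4, 23.8, 24.99 and 25.5 CPM in stress. The groups overlapped, with control M31 the highest brain. The means were 25.2 ± 1.14 and 24.4 ± 0.96 CPM (SD, n = 4), with a Log2FC of -0.05 (SE 0.05, 95% interval -0.14 to 0.05, edgeR adjusted p = 0.568, exact permutation p = 0.343). Over the 4 FoxO genes the bounds of the 95% intervals ran from -0.19 to 0.19.

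To compare levels between genes, counts were divided by the length of the counted exons and scaled to the same total in each library (TPM). Foxo6 had the highest level, 70.4 TPM on average (64.5 to 75.9 over the 8 brains). Foxo3 at 28.2 TPM (27.1 to 29.9) and Foxo4 at 27.5 TPM (26.3 to 30.05) followed, and their ranges overlapped, so their order is not distinguishable. Foxo1 was lower at 8.62 TPM (7.84 to 9.17).

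Depp1 was the lowest of the 5, at 5.59 ± 1.12 TPM in control and 1.83 ± 0.39 TPM in stress (SD, n = 4). Among neighbours in this order, Foxo3 and Foxo4 overlapped, and each other pair was separate over all 8 brains. Depp1 ranked 13426 of the 17865 tested genes by mean TPM, with 24.8% of genes below it. The coefficient of variation over the 8 brains was 58.0% for Depp1 and between 4.04% and 5.45% for the FoxO genes.

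The FoxO levels summed to 132 ± 1.83 TPM in control and 137 ± 3.28 TPM in stress (SD, n = 4), with ranges that overlapped (130 to 134 and 133 to 140). Foxo6 made up 51.3% of this sum in control and 53.1% in stress. The shares of Foxo3 were 20.8% and 21.0%, of Foxo4 21.2% and 19.7%, and of Foxo1 6.70% and 6.10%. The family composition was thus dominated by Foxo6 in both groups.

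**Figure D2:**
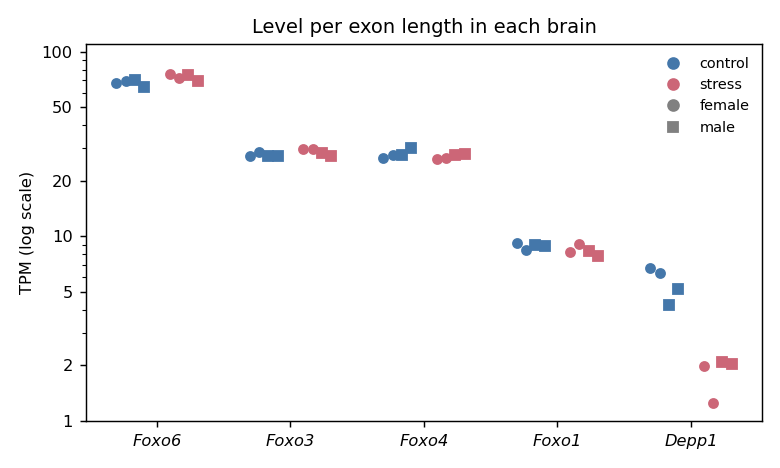
Level per exon length (TPM, log scale) of each gene in each of the 8 brains, control in blue and stress in red, females as circles and males as squares. Foxo6 was highest in all brains, Foxo3 and Foxo4 overlapped near 28.2 and 27.5 TPM on average, and Depp1 was lowest, between 1.24 and 6.70 TPM.

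Sex was examined as a contrast that had no part in choosing the genes. None of the 5 passed edgeR's quasi-likelihood test of males against females, where 0.0896% of all genes were called. Of the 5, 0 had an unadjusted p below 0.05, and DESeq2 called 0. The male against female Log2FC was -0.23 for Depp1 (SE 0.19, adjusted p = 0.909), 0.08 for X-linked Foxo4 (SE 0.05, adjusted p = 0.872), -0.06 for Foxo3, -0.03 for Foxo1 and -0.02 for Foxo6.

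The Depp1 difference was present in both sexes. Mean Depp1 was 2.29 CPM in control females and 0.56 CPM in stress females, and 1.64 CPM in control males and 0.73 CPM in stress males (n = 2 each), log2 ratios of -2.03 and -1.17. The sex by stress interaction was 0.84 (SE 0.40, 95% interval 0.01 to 1.67) with an edgeR p of 0.0464 and an adjusted p of 0.781, so it did not pass the threshold, and 0.0056% of all genes did. Leaving out 1 brain at a time gave between 0.57 (without stress F35) and 1.22 (without stress F34). For the FoxO genes the interaction lay between -0.06 and 0.03, with adjusted p from 0.954 to 0.982.

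Across the 8 brains, the Pearson correlation of log2 CPM with Depp1 was 0.41 for Foxo1, 0.40 for Foxo4, -0.67 for Foxo6 and -0.68 for Foxo3, given as a description. These points fall into the groups on which Depp1 was selected, and each correlation has the sign opposite to that gene's own Log2FC. Depp1 fell, so Foxo1 and Foxo4, with a negative Log2FC, had positive correlations, and Foxo3 and Foxo6, with a positive one, had negative correlations.

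The genes most like Depp1 over the 8 brains, by Pearson correlation among all tested genes, were A230050P20Rik and Pla2g4b (both 0.99), followed by Syp, Inpp5j, Lrp11 and Fam110b (each 0.98). All 6 were lower in each stress brain than in any control brain, where 16.4% of all genes tested had groups that did not overlap. These 6 were picked for likeness to Depp1, whose own groups do not overlap, so this is a description only. The Log2FC of the 6 ran from -0.62 for A230050P20Rik to -0.12 for Lrp11. Pla2g4b shared 66.5% of its exon bases with other genes and did not pass the test (edgeR adjusted p = 0.169). For the FoxO genes, the closest 3 were Arhgef15, Ramp3 and 1700008H02Rik for Foxo1 (0.96 to 0.97), Utp4, Gm48865 and Mapk14 for Foxo3 (0.96 to 0.97), Atp6v1h, Tmf1 and Shld2 for Foxo4 (0.95 to 0.96), and Jmjd8, Smoc1 and Rgs16 for Foxo6 (each 0.98).

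The tested genes nearest to Depp1 on chromosome 6 did not share its difference. Gm44154, 17663 bases before it, had a Log2FC of -0.12 (SE 0.27, edgeR adjusted p = 0.833), and Tmem72, 26268 bases after it, one of 0.02 (SE 0.08, adjusted p = 0.902).

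The pathway that restrains FoxO proteins was assessed in a list of 29 genes from ligands to kinases, of which 28 were tested. In edgeR's test 1 rose and 2 fell (10.7% called, below the 13.8% of all genes), and the median Log2FC was -0.02 beside 0.0015 over all genes tested. The genes named are therefore given singly and not as a result about the list. The genes called were the PI3-kinase regulatory subunits Pik3r3 (Log2FC 0.11, adjusted p = 0.00758) and Pik3r1 (-0.09, 0.0491) and the insulin receptor substrate Irs2 (-0.12, 0.0327), itself a FoxO-induced gene. Pik3r3 shared 24.3% of its exon bases with other genes.

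Of the 5 kinases listed as phosphorylating FoxO proteins on the AKT sites, 0 passed edgeR's test, 0 had an unadjusted p below 0.05 and DESeq2 called 0. Akt1, the most highly counted gene of the list, measured 325 ± 9.65 CPM in control and 326 ± 7.26 CPM in stress (SD, n = 4). The calls of Irs2 and Pik3r1 did not hold in every fit (6 and 3 of 13 alternatives), and both were lost with DESeq2 (adjusted p = 0.0773 and 0.0795).

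Proteins that bind or modify FoxO proteins were assessed in a list of 31 genes, all tested. In edgeR's test 3 rose and 2 fell (16.1% called, near the 13.8% of all genes), with a median Log2FC of 0.01. The 14-3-3 genes Ywhag (1021 ± 6.10 CPM in control, 952 ± 20.6 in stress) and Ywhah (376 ± 9.59 and 347 ± 11.9) fell, with Log2FC of -0.10 and -0.11, while Ywhae, the most highly counted, was at 1158 ± 12.6 and 1164 ± 39.2 CPM (adjusted p = 0.901).

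The genes that rose were Skp2, which directs Foxo1 to degradation (Log2FC 0.15, edgeR adjusted p = 0.0101), the kinase Cdk2 (0.14, 0.0416) and the FoxO coactivator beta-catenin, Ctnnb1 (0.10, 0.00509). Cdk2 was called in 3 of 13 alternatives. Among the genes called in this list, no Log2FC exceeded 0.15 in either direction.

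Known FoxO-induced genes were assessed in a list of 45. Of these, 39 were tested, and in edgeR's test 2 rose and 4 fell (15.4% called, near the 13.8% of all genes), with a median Log2FC of -0.02. Depp1 itself was not in the list. Autophagy genes, the group nearest to the known role of Depp1, had 0 of 9 called by edgeR or DESeq2, with Log2FC from -0.12 to 0.09. Of these 9, 1 higher and 2 lower had an unadjusted p below 0.05.

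Txnip, an inhibitor of thioredoxin that is also induced by glucose, rose from 48.5 ± 1.08 to 65.0 ± 1.18 CPM (SD, n = 4), a Log2FC of 0.42 (SE 0.03), and 19.4% of its exon bases are shared with other genes. Mxi1, an antagonist of Myc, rose with a Log2FC of 0.12 and kept its call in 10 of 13 alternatives.

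The genes that fell besides Irs2 were Bcl6, a transcriptional repressor (11.02 ± 0.93 CPM in control, 7.72 ± 0.78 in stress, Log2FC -0.52), Cdkn1a, which encodes the cell cycle inhibitor p21 (27.8 ± 1.67 and 21.9 ± 0.94, -0.34), and Bbc3, the cell death gene Puma (17.6 ± 0.45 and 14.7 ± 1.002, -0.26). All 3 kept their calls in each of the 13 alternatives, with the highest adjusted p, in any of them, at 0.0241 for Bbc3. Of the 3 targets with a motif window printed above, Txnip and Mxi1 were higher and Bbc3 lower in stress. These 3 were printed because they were called. Of the other listed targets with a motif, Btg1, Sesn1, Selenop and Bcl2l11 were not called, and Trim63 had too few reads to be tested.

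The cyclin D genes Ccnd1 and Ccnd2, which FoxO factors repress, both rose, with a Log2FC of 0.13 each (edgeR adjusted p = 0.0324 and 0.00198). Across all genes tested, 6.49% were called higher. DESeq2 called Ccnd2 but not Ccnd1 (adjusted p = 0.000173 and 0.0906), and whether FoxO factors have a part in this was not tested. Ccnd2 went from 376 ± 12.5 to 412 ± 16.2 CPM (SD, n = 4) with groups that did not overlap. Ccnd1 groups overlapped, 23.4% of its exon bases are shared with other genes, and it was called in 5 of 13 alternatives.

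A further list held the steroid receptors, hypoxia factors and a fasting factor, since Depp1 was first known as a progesterone-induced gene. The progesterone receptor Pgr was at 5.81 ± 0.61 CPM in control and 5.53 ± 0.62 in stress (Log2FC -0.07, edgeR adjusted p = 0.691), and the oestrogen receptor Esr1 was below 1 CPM in each brain. The glucocorticoid receptor Nr3c1 (16.0 ± 0.66 and 13.8 ± 0.49 CPM, Log2FC -0.21) and the mineralocorticoid receptor Nr3c2 (4.40 ± 0.46 and 3.398 ± 0.29, -0.37) fell in edgeR's test. They were called in 10 and 9 of 13 alternatives but not with DESeq2 (adjusted p = 0.0555 and 0.0955). Hif1a rose with a Log2FC of 0.13 and Epas1 was not called (-0.06, adjusted p = 0.436). Of the 6 genes tested in this list, edgeR called 2 lower and 1 higher, beside 7.27% lower and 6.49% higher of all genes. The fasting factor Ppara had too few reads to be tested.

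**Figure D3:**
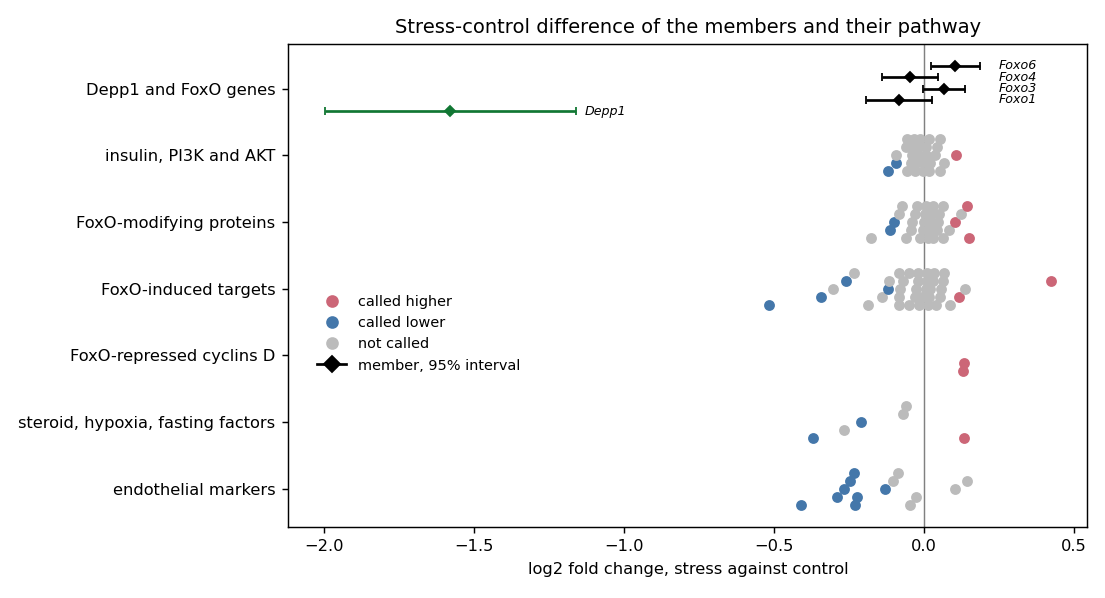
Log2 fold change (stress against control, x axis) of Depp1 (green, with 95% interval), the 4 FoxO genes (black, with 95% intervals) and each tested gene of the 5 pathway lists and of the endothelial marker list (1 point per gene, red called higher, blue called lower, grey not called). Depp1 (-1.58) was selected on its fall in this contrast, so its place below the listed genes and its interval are no test. The lowest value in the 6 lists is -0.52 (Bcl6).

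Markers of endothelial cells, in which Depp1 is known to be expressed, mostly moved toward lower values in stress. Of 14 markers, all tested and none at 0, 8 fell (57.1%, beside 7.27% of all genes called lower) and 0 rose in edgeR's test, with a median Log2FC of -0.18. DESeq2 also called 0 higher, and 1 higher marker had an unadjusted p below 0.05. The vascular growth factor receptors Flt1 (23.8 ± 1.66 to 17.9 ± 0.76 CPM, Log2FC -0.41) and Kdr (41.3 ± 2.98 to 33.8 ± 0.90, -0.29) and the co-receptor Eng (22.9 ± 0.23 to 19.0 ± 0.49, -0.27) fell. Of the junction genes, Esam (Log2FC -0.23, edgeR adjusted p = 0.0169) and Cldn5 (-0.13, 0.0267) fell, while Pecam1 (adjusted p = 0.374) and Cdh5 (0.625) did not pass. The count of 8 went to 3 with DESeq2, to 3 without control F37 and to 5 without control M31, stress F34 or stress F35. Over all genes, the 1298 called lower became 911 with DESeq2, 970 without control F37 and 1006 without control M31. Without stress F34 the number was 1085, and without stress F35 it was 1308.

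The summed endothelial markers were 298, 314, 306 and 319 CPM in control F36, F37, M30 and M31, and 279, 266, 281 and 281 CPM in stress F34, F35, M28 and M29. The stress mean was 10.6% below the control mean, and the groups did not overlap. Stress F35, the brain with the least Depp1, also had the lowest sum. Per 100 CPM of this sum, Depp1 was 0.64 ± 0.14 CPM in control and 0.23 ± 0.05 CPM in stress (SD, n = 4), 63.5% lower, with groups that did not overlap (0.49 to 0.79 and 0.16 to 0.26). Whether the lower marker level has a part in the Depp1 difference was not tested.

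**Figure D4:**
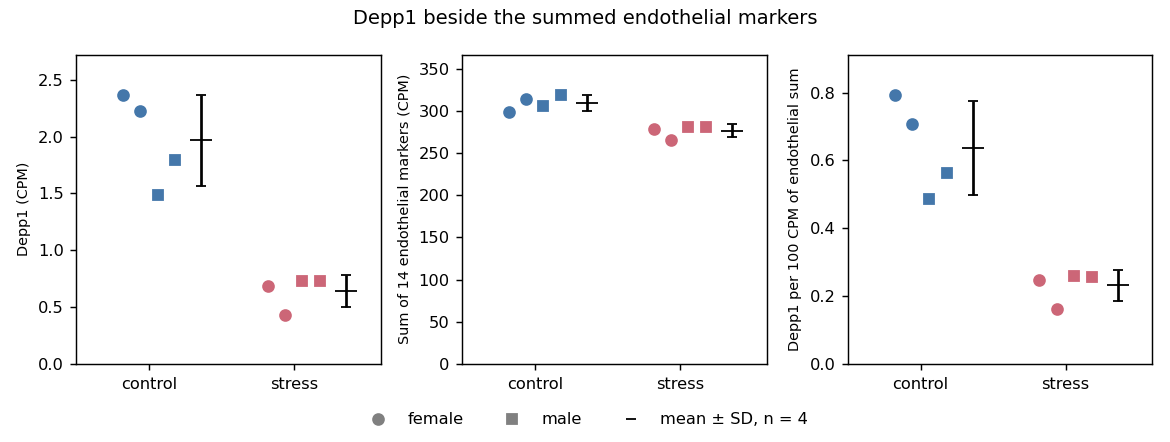
Depp1 (CPM), the sum of the 14 endothelial markers (CPM) and Depp1 per 100 CPM of that sum in each brain (y axes from 0), control in blue and stress in red, females as circles and males as squares, with mean ± SD. The marker sum was 10.6% lower in stress on average, Depp1 67.2% lower, and their ratio 63.5% lower.

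Other marker lists moved too, and their part in the Depp1 difference was not tested. Oligodendrocyte precursor markers (3 of 5 lower) summed to 274 to 291 CPM in control and 233 to 249 CPM in stress. Cspg5 made up most of this sum (174 ± 3.50 CPM in control, 149 ± 4.58 in stress). It was called lower with Olig1 and Pdgfra, while Olig2 (edgeR adjusted p = 0.352) and Sox10 (0.982) were not called. Neuron markers (5 of 8 lower, 7017 to 7268 and 6848 to 7182 CPM) and radial glia markers (4 of 8 higher, 1529 to 1623 and 1559 to 1686 CPM) overlapped between the groups, as did choroid plexus markers (3 of 7 higher, 37.7 to 48.7 and 47.5 to 77.7 CPM) and meningeal fibroblast markers (3 of 6 tested higher, 16.0 to 30.1 and 21.3 to 63.9 CPM). Beside these edgeR counts, 6.49% of all genes were called higher and 7.27% lower. DESeq2 called 3 oligodendrocyte precursor, 4 neuron and 3 radial glia markers in the same directions, but 1 choroid plexus marker (Otx2) and 0 meningeal fibroblast markers. Over all 17865 genes, DESeq2 called 748 higher and 911 lower. Otx2 made up most of the choroid plexus sum (38.1 ± 2.81 CPM in control, 43.2 ± 1.28 in stress). Ttr of that list ran from 0.66 to 29.9 CPM among stress brains. Kl and Folr1 went the other way (Log2FC -0.37 and -0.20) and were not called. Mural cell and microglia markers had 0 of 8 and 0 of 7 called by edgeR or DESeq2, with 2 and 0 at an unadjusted p below 0.05. Arterial endothelial markers had 1 of 7 tested lower (Dll4, Log2FC -0.36). Erythroid markers had 2 of 8 tested higher, the embryonic globins Hbb-y and Hba-x, and 1 lower, and DESeq2 called the same numbers. The ependymal and surface epithelium lists had 1 of 4 and 1 of 3 tested lower, with larger differences than any other marker called lower. Dnah12, an axonemal dynein of cilia, went from 0.54 ± 0.10 to 0.23 ± 0.03 CPM (SD, n = 4, Log2FC -1.23), and the desmosomal gene Dsc3 from 0.53 ± 0.10 to 0.23 ± 0.07 CPM (Log2FC -1.20). Neither gene's groups overlapped, both had fewer than 20 reads in every brain, and neither was called by DESeq2 (adjusted p = 0.0839 and 0.0964). No marker of the neuron list, which defines the labelled tissue, was at 0 in all brains.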

How the data were processed

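RNA-seq reads of 8 fetal brains had been aligned to mm10 with TopHat2 2.1.1 and counted per gene on GENCODE annotation with featureCounts 1.6.3, without a strand option, by the authors, who deposited raw counts per gene for each brain. Of 54752 identifiers, 54723 matched a symbol. Genes were kept by edgeR's filterByExpr (minimum count 10) and fitted with edgeR 4.0.16 in R 4.3.3 (limma 3.58.1) on TMM-scaled counts, with sex and condition as terms, then tested by the quasi-likelihood F-test with Benjamini-Hochberg adjustment at 0.05. The study's batch term could not be included, since no batch is given for these libraries. The members and lists were chosen with earlier results of these data known, and the lists were not picked for how their genes moved. Genes named from the upstream, modifier and target lists were up to 4 called in each direction, by p, and the 2 most highly counted, and for the Depp1 and FoxO patterns the 6 and 3 most correlated genes in log2 CPM (prior count 2). One gene that this rule names is not reported here. Alternatives were DESeq2 1.42.0, other scaling factors (RLE and upper quartile), no filter, no sex term and leaving out each brain. The fits were tested on simulated data. Promoter windows and coordinates came from RefSeq tables of GRCm38.p6 and the count files. Poisson 95% intervals were exact and cover counting error only.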

Additional observations from a re-analysis of the deposited data

Results flagged for a closer look

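Depp1 in stress F35, at 0.434539 CPM (11 reads, 95% Poisson interval 5.49 to 19.7), stood apart from the other 3 stress brains (19 to 21 reads), with a gap to its nearest neighbour of 0.852 of the group's range, above Dixon's 95% critical value for 4 samples. Chance gives about 1 such value in 20 groups, and 10 groups (5 genes in each condition) were examined. The Poisson intervals of the 4 brains overlapped, and without F35 the Depp1 Log2FC was -1.39 instead of -1.58.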

How the results depend on the processing

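The direction of the stress difference was the same for all 5 genes under the 13 alternatives, and no FoxO gene was called in any. The Depp1 Log2FC ran from -1.69 to -1.39 when brains were left out in turn and from -1.59 to -1.58 otherwise. The list of genes upstream of FoxO proteins had 2 called lower, 0 with DESeq2, 1 with upper-quartile factors, 0 without the sex term and 0 to 2 when brains were left out in turn, and the target list had 2 called higher and 1 to 3 in that case. Over all genes, the 1160 called higher became 748 with DESeq2 and 736 without stress M29. The 1298 called lower became 911 with DESeq2 and 854 without stress M29. When brains were left out in turn, the ranges were 736 to 1057 higher and 854 to 1308 lower. The endothelial list was run under the alternatives after the data had been seen: its 8 called lower became 3 with DESeq2 and 3 to 7 when brains were left out (5 without control M31, stress F34 or stress F35), and 1 marker was called higher without stress F35. Sex and interaction values near 0 changed sign when 1 brain was left out: over these fits the sex Log2FC ran from -0.0586 to 0.00598 for Foxo1 and from -0.0472 to 0.00722 for Foxo6, and the interaction from -0.137 to 0.0109 for Foxo1, -0.0469 to 0.0101 for Foxo3, -0.0283 to 0.0841 for Foxo4 and -0.0412 to 0.0972 for Foxo6. The cause was not tested. No paired analysis was possible because the groups share no animal numbers. Depth limits Depp1, with 11 to 65 reads per brain, and levels per length depend on the annotated exons.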
